A study of Mus musculus with 35 samples.

Results

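The genes described here are the eukaryotic initiation factors (eIF) and elongation factors (eEF) of cytoplasmic protein synthesis. They were chosen by symbol: every gene named Eif1 to Eif6 or Eef1 or Eef2, with whatever followed, except records named as pseudogenes. This gave 66 of the 49671 genes in the counts. They were measured in lin- HSPCs, the mouse bone marrow cells left after mature blood lineages are removed, which hold hematopoietic stem cells and progenitors, after transduction with a lentivirus. All 7 groups were cells of male and female C57Bl/6 mice, sorted 2 days later on the vector's mCherry and, for the fusions, also on mEGFP. They were then grown for 1 week in the methylcellulose medium Methocult M3434, to which GM-CSF was added at 10 ng/mL, and each group had 5 libraries. Empty carried the vector without a fusion. G-NHX9 (G-NHA9 in the study's text) carried NUP98-HOXA9 tagged with mEGFP, a leukemia fusion that joins the phenylalanine-glycine (FG) repeats of the nucleoporin NUP98 to the DNA-binding homeodomain of HOXA9. G-NHX9-8FA and G-NHX9-21FGAA carried it with 8 phenylalanines, or 21 FG pairs, changed to alanine. G-NHX9-midi kept the C-terminal portion of the NUP98 part without its GLEBS domain, and G-NHX9-midi-21FGAA carried this short form with 21 FG pairs changed. G-NHX9-DDNA kept all FG motifs and carried a homeodomain mutated to weaken DNA binding. Mice were 8 weeks old, except for Empty replicates 4 and 5 (9 and 10 weeks) and G-NHX9 replicate 1 (11 weeks). The fusions were expressed from a viral vector, and each library held all cells that had grown out after 1 week.

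Initiation factors bring the initiator tRNA and the small ribosomal subunit to a start codon. eIF4F binds the cap of the mRNA through eIF4E, unwinds it through the eIF4A helicase and bridges it to eIF3 on the ribosome through eIF4G, while 4E-BPs hold eIF4E back. eIF2 carries the initiator tRNA, eIF2B recharges eIF2 with GTP, and the eIF2 kinases block that recharging in the integrated stress response. eEF1A then delivers each aminoacyl-tRNA, the eEF1B complex recharges eEF1A, eEF2 moves the ribosome along, and eIF5A helps it past difficult peptide bonds. Growing blood progenitors depend on these factors, and MYC and mTOR signalling are known regulators of them.

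Reference promoters (RefSeq, GRCm38.p6, 250 bases before to 50 bases after an annotated start) were found for 51 of the 66 genes. Windows around the letters CACGTG (the E-box form bound by MYC and other factors) are shown where they occur in the 3 core genes of eIF4F, in Eef2 and in Eif5a2 and Eif3f, which the results below turn on. Each window is 30 bases, 5′ to 3′ on the gene's strand, with every CACGTG in capitals. Eif4e, Eif4g1 and Eif5a2 each had 2 sites.
Eif4e (chr3:138527192-138527221, plus strand): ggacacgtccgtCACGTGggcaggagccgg
Eif4e, other site (chr3:138527028-138527057, plus strand): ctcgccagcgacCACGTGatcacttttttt
Eif4g1 (chr16:20672661-20672690, plus strand): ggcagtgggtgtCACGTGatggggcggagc
Eif4g1, other site (chr16:20672730-20672759, plus strand): ctctgcgccggtCACGTGgggcgctggctg
Eif4a1 (chr11:69672595-69672624, minus strand): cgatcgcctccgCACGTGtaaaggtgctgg
Eef2 (chr10:81176576-81176605, plus strand): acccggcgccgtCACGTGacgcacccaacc
Eif5a2 (chr3:28781123-28781152, plus strand): actaatccgcagCACGTGgggttgccaggg
Eif5a2, other site (chr3:28781148-28781177, plus strand): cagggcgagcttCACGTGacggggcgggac
Eif3f (chr7:108934335-108934364, plus strand): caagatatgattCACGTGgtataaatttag

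CACGTG, which reads the same on both strands, lay in the promoters of 12 of the 51 members (23.5%) and of 8.09% of the 27025 genes with a promoter in the same table. Eef1b2 and Eef1e1, among the members with the largest changes, lacked it. Besides the genes shown, those with it were Eef2k, Eif1b, Eif3a, Eif3k, Eif4h and Eif5a. CCGGAAGT, on either strand, was in 9 members (17.6%, against 4.31% of genes), the NRF1 motif in 8 (15.7%, against 5.19%) and TGATGNAA in 2 (3.92%, against 4.51%). Messenger RNAs of the translation apparatus often begin with a C followed by a run of pyrimidines, the feature through which mTOR controls their translation. Such a tract of at least 5 bases stood exactly at the annotated start in 3 members, Eif3f, Eif2s3x and Eif2c5 (5.88%, against 3.01% of genes), and it is shown in capitals for both translation factors.
Eif3f start (chr7:108934405-108934434, plus strand): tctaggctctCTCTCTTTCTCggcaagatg
Eif2s3x start (chrX:94212632-94212661, minus strand): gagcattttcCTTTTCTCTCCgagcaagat
These are matches of letters to 1 annotated start per record and say nothing of binding or of a factor.

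Libraries held between 31559914 and 75810659 counted reads, and the members took 1.36% to 2.31% of them. No pair of replicates agreed within sampling noise (chi-square per degree of freedom of at least 24.7). Levels are given in CPM (read counts scaled to library size, after edgeR's TMM correction for composition), and comparisons as log2 fold changes ± SE with Benjamini-Hochberg adjusted p-values over all 17166 genes tested (edgeR's quasi-likelihood test, threshold 0.05). Labels number replicates without naming a culture or animal, and the study's methods speak of transduction in triplicate where each group here has 5 libraries. Whether the 5 were separate cultures is not stated, so p-values measure the spread between these libraries. In these bulk samples, fewer cells of a type and less RNA per cell cannot be told apart. The 7 stem and progenitor markers summed to 253 ± 35.4 CPM in Empty, among them Kit at 83.3 ± 10.0 CPM and Cd34 at 36.9 ± 9.25 CPM. Which cells held them was not measured. The 8 macrophage markers (Lyz2, Csf1r and others) summed to far more, 32316 ± 4835 CPM in Empty, but most of this was Lyz2 alone. Late neutrophil markers summed to 9727 ± 1598 CPM in Empty. Flt3 was near 0 in Empty, at 0.187 ± 0.104 CPM.

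In Empty, levels per length (RPKM over the exons in GENCODE M21) ran from 0.411 RPKM for Eif3j2 to 2953 RPKM for Eef1a1 among the members tested. Eef1a1, the carrier of aminoacyl-tRNA, stood at 2953 ± 544 RPKM, followed by Eef2 (622 ± 72.1 RPKM), Eif4a1 (195 ± 31.5 RPKM), Eif5a (189.8 ± 13.4 RPKM) and Eef1b2 (142 ± 19.8 RPKM). Eif4a1 and Eif5a differed by less than the SD of either. Some relatives were far apart per length. Eif4a2 stood at 50 ± 11.4 RPKM, Eif5a2 at 1.34 ± 0.302 RPKM beside Eif5a, and the Y-linked Eif2s3y at 3.58 ± 1.18 RPKM beside the X-linked Eif2s3x at 23.4 ± 2.88 RPKM. Eef1a1, Eif4a1, Eif5a and other abundant members have many processed copies, and Eif1a and Eif1ax or Eif3j1 and Eif3j2 are close copies, so reads shared between them could have been lost or split. Exons of many members overlap other genes. Those of Eef1b2 overlap Ndufs1, and those of Eif4a2 overlap Rfc4, on the other strand. Eef1d overlaps Naprt and Eif4e3 overlaps Gm20696 on the same strand, where counting by strand would not separate them. Whether reads were counted by strand was not given. Of the 66 members, 62 passed the filter on low counts. The other 4 were Eef1a2, the muscle and neuron form of eEF1A (0 to 18 reads per library), Eif4e1b, the oocyte form of eIF4E (0 to 3 reads), Eif4ebp3 (0 to 9 reads) and Eif2c5 (0 or 1 read), an annotated non-coding RNA that bears an older symbol of the argonaute family and is no translation factor. Eif2c5 had a median of 0 reads in 6 of the 7 groups, which allows up to 0.0382 to 0.0995 CPM by counting error alone.

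Against Empty, members were called mainly higher for G-NHX9, G-NHX9-8FA, G-NHX9-21FGAA and above all G-NHX9-midi, and in both directions for G-NHX9-midi-21FGAA and G-NHX9-DDNA. In G-NHX9, 13 of 62 rose and 0 fell, where 32.1% of all genes were called (16.9% higher and 15.2% lower). In G-NHX9-8FA, 15 rose and 0 fell (background 26.6%, 13.4% higher and 13.2% lower). In G-NHX9-midi, 33 rose and 1 fell (background 40.5%, 20.5% higher and 20% lower). In G-NHX9-21FGAA, 11 rose and 2 fell (background 27.1%, 14.7% higher and 12.5% lower). By contrast, 8 rose and 6 fell in G-NHX9-midi-21FGAA (background 16.9%, 9.59% higher and 7.32% lower), and 6 rose and 6 fell in G-NHX9-DDNA (background 17.2%, 9.85% higher and 7.35% lower). The share of members called higher was thus near the background in G-NHX9, G-NHX9-21FGAA, G-NHX9-midi-21FGAA and G-NHX9-DDNA, and above it in G-NHX9-8FA and G-NHX9-midi. The share called lower was below it in G-NHX9, G-NHX9-8FA, G-NHX9-midi and G-NHX9-21FGAA. The medians of the log2 fold changes over the 62 members were 0.18, 0.15, 0.27, 0.11, 0.07 and 0.10 for G-NHX9, G-NHX9-8FA, G-NHX9-midi, G-NHX9-21FGAA, G-NHX9-midi-21FGAA and G-NHX9-DDNA, beside -0.02 to 0.03 over all genes tested. With DESeq2, the members called were 14 higher and 1 lower in G-NHX9, 33 and 1 in G-NHX9-midi, and 10 and 6 in G-NHX9-DDNA. At an unadjusted p under 0.05, 23 were higher and 1 lower in G-NHX9 and 21 and 1 in G-NHX9-8FA, where DESeq2 called 15 higher and 0 lower. In fits that each left out 1 library, 8 of the 13 calls were kept throughout in G-NHX9, 9 of 15 in G-NHX9-8FA, 24 of 34 in G-NHX9-midi, 5 of 13 in G-NHX9-21FGAA, 6 of 14 in G-NHX9-midi-21FGAA and 0 of 12 in G-NHX9-DDNA.

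**Figure D1:**
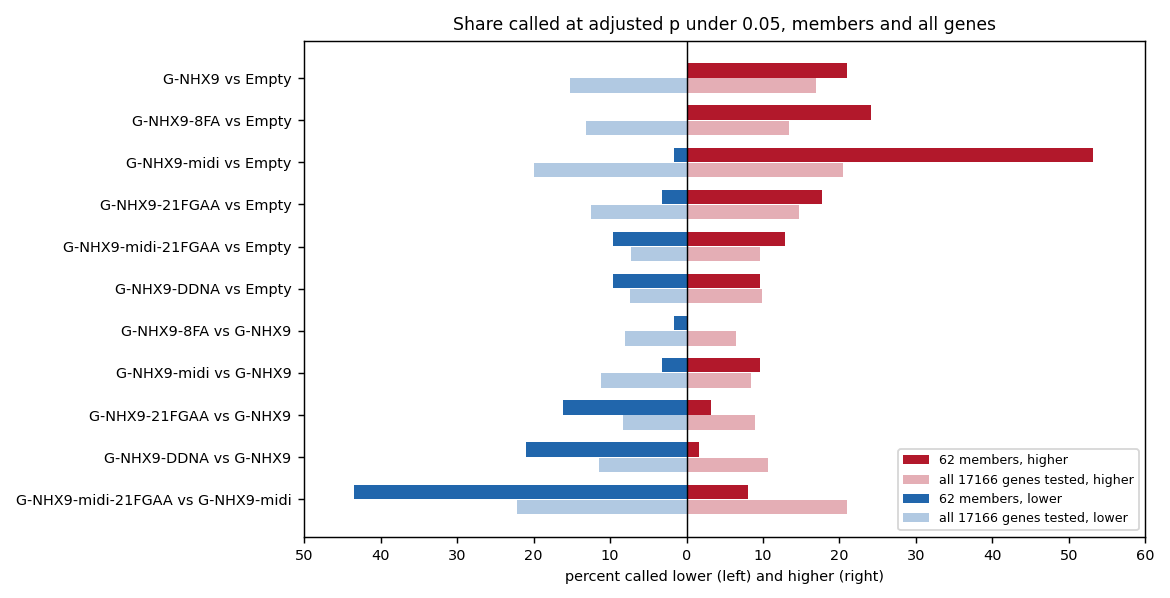
Percent of the 62 tested members (dark bars) and of all 17166 genes tested (pale bars) called higher (right, red) or lower (left, blue) at an adjusted p under 0.05, for each of the 11 comparisons. The longest dark bars are those of G-NHX9-midi against Empty, with 33 members higher, and of G-NHX9-midi-21FGAA against G-NHX9-midi, with 27 lower.

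These splits rest in part on the scaling. Without TMM, the median of all genes lay 0.05 to 0.18 higher on the log2 scale in the constructs against Empty, and calls leaned to higher throughout. Among all genes called, the share that was higher moved from 52.5% to 75.4% in G-NHX9, from 50.6% to 64.6% in G-NHX9-midi, from 54.0% to 82.1% in G-NHX9-21FGAA, from 56.7% to 83.1% in G-NHX9-midi-21FGAA and from 57.3% to 82.5% in G-NHX9-DDNA. In G-NHX9-8FA it was 50.4% and 58.5%. Members called were then 38 higher and 0 lower in G-NHX9, 20 and 0 in G-NHX9-8FA, 43 and 0 in G-NHX9-midi, 29 and 0 in G-NHX9-21FGAA, 22 and 2 in G-NHX9-midi-21FGAA and 20 and 0 in G-NHX9-DDNA. All calls of lower members against Empty below are therefore relative to the TMM scale, and of these only Eif3f and Eif3h in G-NHX9-midi-21FGAA kept their call without it. The replicate number paired libraries in G-NHX9, G-NHX9-midi-21FGAA and G-NHX9-DDNA against Empty, and with it as a block 19 members rose and 1 fell in G-NHX9, and 12 rose and 11 fell in G-NHX9-midi-21FGAA. In G-NHX9-DDNA it gave 11 and 7, and all 12 calls made without the block were kept with it. The fits that each left out 1 library used no block.

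Markers of other blood cell types and of proliferation moved with the constructs in the same libraries. The shares of all genes called in each construct, given above, are the background of the counts that follow. Erythroid markers, 10 genes from Klf1 to the globins, fell in G-NHX9-8FA (9 of 10) and G-NHX9-midi (8 of 10), and 7, 8 and 5 of 10 rose in G-NHX9-21FGAA, G-NHX9-midi-21FGAA and G-NHX9-DDNA. Their summed level was 204 to 522 CPM in Empty, 115 to 146 in G-NHX9-8FA, 137 to 185 in G-NHX9-midi and 491 to 1095 in G-NHX9-midi-21FGAA. All 6 eosinophil markers and all 6 megakaryocyte markers fell in G-NHX9-8FA and G-NHX9-midi, and 3 of each in G-NHX9. The 8 mast cell and basophil markers summed to 1048 to 2945 CPM in Empty, 536 to 847 in G-NHX9, 495 to 818 in G-NHX9-8FA, 412 to 759 in G-NHX9-midi, 2807 to 3954 in G-NHX9-21FGAA and 2272 to 5112 in G-NHX9-midi-21FGAA. Of these 8, 5 fell in G-NHX9 and 7 in each of G-NHX9-8FA and G-NHX9-midi, while 4 rose in G-NHX9-21FGAA and 3 in G-NHX9-midi-21FGAA. Early granule markers such as Mpo rose in G-NHX9, G-NHX9-8FA (4 of 5 each), G-NHX9-midi (3), G-NHX9-21FGAA and G-NHX9-DDNA (5 each) but not in G-NHX9-midi-21FGAA (0). The summed level of the 8 macrophage markers was lower than in every Empty library (28400 to 39045 CPM) in all libraries of the constructs, at 5432 to 14485 in G-NHX9, 10365 to 22675 in G-NHX9-8FA, 6231 to 15482 in G-NHX9-midi, 11525 to 18444 in G-NHX9-21FGAA, 19007 to 24387 in G-NHX9-midi-21FGAA and 15608 to 20927 in G-NHX9-DDNA. Most of this sum was Lyz2 (29077 ± 4551 CPM in Empty). Of the 8, 5 fell and 1 rose in G-NHX9-midi, 3 and 2 in G-NHX9, 2 and 1 in G-NHX9-8FA, 4 and 0 in G-NHX9-21FGAA, 3 and 0 in G-NHX9-DDNA, and none was called in G-NHX9-midi-21FGAA. Of 8 late neutrophil markers, 4 rose in G-NHX9-8FA, 3 fell in G-NHX9, 1 fell in each of G-NHX9-21FGAA and G-NHX9-midi-21FGAA, and 2 rose in each of G-NHX9-midi and G-NHX9-DDNA beside 2 and 1 that fell. Of 7 stem and progenitor markers, 6 rose in G-NHX9 and 3 or 4 in each other construct, and 1 fell in each of G-NHX9, G-NHX9-midi and G-NHX9-DDNA. No marker was at 0 in every library of a group. Of 11 genes of DNA replication and proliferation, 10 rose in G-NHX9, 1 in G-NHX9-8FA, 6 in G-NHX9-midi and all 11 in each of the other 3 constructs. The part of these shifts in the values of the translation factors was not tested.

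**Figure D2:**
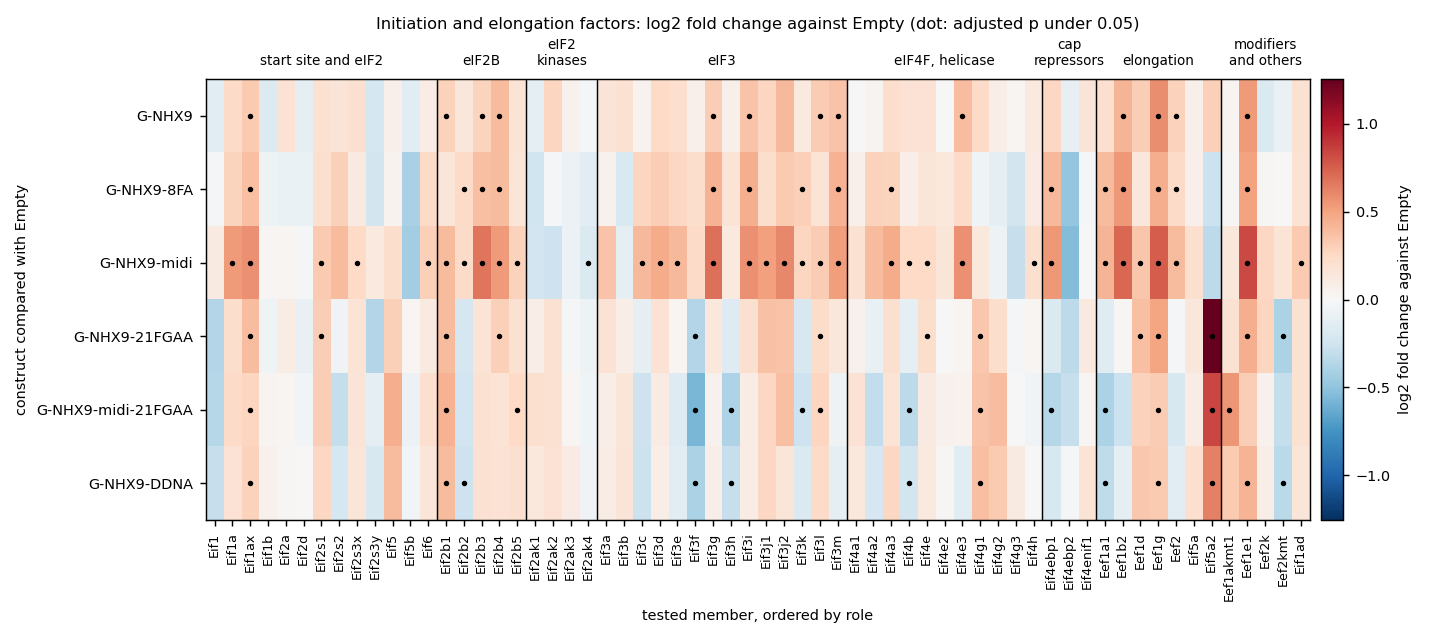
Log2 fold change of each of the 62 tested members (columns, ordered by role) in each construct against Empty (rows), with red for higher, blue for lower and a dot for an adjusted p under 0.05. Most columns of eIF2B, eIF3 and elongation factors are red and dotted in the G-NHX9-midi row, and Eif5a2 is darkest in the G-NHX9-21FGAA row.

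Among elongation factors, Eef1a1, Eef1b2 and Eef2 had their highest mean in G-NHX9-midi and their lowest in G-NHX9-midi-21FGAA, while Eef1g was above Empty throughout. Eef1b2 (chr1:63176825-63180486), the guanine nucleotide exchange subunit that recharges eEF1A, was at 357, 426, 382, 341 and 289.5 CPM in the 5 Empty libraries. It was at 581, 576, 582, 611 and 595 CPM in G-NHX9-midi, all above the highest Empty library. In G-NHX9-midi-21FGAA it was at 260.2, 325, 324, 279.9 and 303 CPM, so that the libraries of the short form with FG pairs kept and changed did not overlap. Against Empty it rose in G-NHX9 (0.42 ± 0.10, adjusted p = 0.00082), G-NHX9-8FA (0.54 ± 0.10, adjusted p = 5.7e-05) and G-NHX9-midi (0.72 ± 0.10, adjusted p = 2.9e-07). Its log2 fold change was 0.01 ± 0.09, adjusted p = 0.93 in G-NHX9-21FGAA and -0.12 ± 0.10, adjusted p = 0.43 in G-NHX9-DDNA. In G-NHX9-midi-21FGAA it was -0.27 ± 0.10, adjusted p = 0.05 and did not pass, and with the replicate block it passed (-0.26 ± 0.09, adjusted p = 0.024).

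Eef1a1 (chr9:78478449-78489151), the most abundant member, was at 7387, 9218, 7867, 6802 and 5534 CPM in Empty, a wide spread. G-NHX9-midi libraries lay close together at 9609 to 10203 CPM, above every Empty library, and the gene rose by 0.43 ± 0.11, adjusted p = 0.003. It also rose in G-NHX9-8FA (0.39 ± 0.11, adjusted p = 0.0096). In G-NHX9-midi-21FGAA it was at 5086 to 5837 CPM and fell by 0.39 ± 0.11, adjusted p = 0.017, and it also fell in G-NHX9-DDNA (-0.32 ± 0.11, adjusted p = 0.047). Eef2 (chr10:81176631-81182498), the translocase, was at 2092, 2385, 2137, 2007 and 1721 CPM in Empty and 2847, 2636, 2718, 2515 and 2917 CPM in G-NHX9-midi, where each library exceeded every Empty library (0.40 ± 0.09, adjusted p = 0.00044). It also rose in G-NHX9 (0.29 ± 0.09, adjusted p = 0.012) and G-NHX9-8FA (0.24 ± 0.09, adjusted p = 0.041), where the groups overlapped. Calls lost in some of the fits that each left out 1 library were those of Eef1a1 in G-NHX9-8FA (1 of 10, adjusted p up to 0.059 without Empty replicate 5), Eef1a1 in G-NHX9-midi-21FGAA (2 of 10, adjusted p up to 0.087 without Empty replicate 2), Eef1a1 in G-NHX9-DDNA (9 of 10, adjusted p up to 0.2 without Empty replicate 2), Eef2 in G-NHX9 (1 of 10, adjusted p up to 0.063 without Empty replicate 5) and Eef2 in G-NHX9-8FA (8 of 10, adjusted p up to 0.21 without Empty replicate 5).

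Eef1g (chr19:8967041-8978479), the scaffold subunit of eEF1B, differed from these in that it rose in all 6 constructs against Empty. Its levels were 335, 373, 307, 265 and 245 CPM in Empty and 552, 475, 506, 515 and 539.9 CPM in G-NHX9-midi. Log2 fold changes were 0.59 in G-NHX9, 0.45 in G-NHX9-8FA, 0.76 in G-NHX9-midi, 0.49 in G-NHX9-21FGAA, 0.32 in G-NHX9-midi-21FGAA and 0.33 in G-NHX9-DDNA, with adjusted p of 5.4e-05, 0.0014, 5.5e-07, 0.00075, 0.035 and 0.028. Eef1d, another exchange subunit, rose in G-NHX9-midi (0.35 ± 0.12, adjusted p = 0.02) and G-NHX9-21FGAA (0.38 ± 0.12, adjusted p = 0.018). Eif5a, the abundant hypusinated factor, was not called in any of the 11 comparisons, and its log2 fold changes against Empty were between 0.06 and 0.21. Leaving out 1 library at a time cost the calls of Eef1g in G-NHX9-midi-21FGAA (6 of 10, adjusted p up to 0.11 without Empty replicate 5), Eef1g in G-NHX9-DDNA (4 of 10, adjusted p up to 0.12 without G-NHX9-DDNA replicate 2), Eef1d in G-NHX9-midi (2 of 10, adjusted p up to 0.089 without Empty replicate 5) and Eef1d in G-NHX9-21FGAA (4 of 10, adjusted p up to 0.059 without G-NHX9-21FGAA replicate 4).

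Eif5a2 (chr3:28781276-28798846), the rarer second form of eIF5A whose 2 CACGTG windows are printed above, had the largest fold change of any tested member against Empty. It was at 8.15, 7.83, 7.53, 5.18 and 5.02 CPM in Empty and at 14.9, 20.4, 18.5, 13.7 and 13.0 CPM in G-NHX9-21FGAA, with every library above every Empty library (2.39-fold, log2 1.25 ± 0.19, adjusted p = 2.2e-05). In G-NHX9-midi-21FGAA it was at 13.6, 12.4, 12.1, 10.3 and 12.2 CPM, again with no overlap (0.84 ± 0.19, adjusted p = 0.0034). In G-NHX9-DDNA it was at 9.48, 11.6, 15.4, 7.94 and 7.81 CPM, overlapping Empty (0.63 ± 0.19, adjusted p = 0.023). Its levels in G-NHX9-8FA (4.15 to 6.60 CPM) and G-NHX9-midi (4.18 to 6.81 CPM) lay within or just below the range of Empty. Compared with G-NHX9 directly, it rose in G-NHX9-21FGAA (0.95 ± 0.19, adjusted p = 0.00041) and fell in G-NHX9-midi (-0.63 ± 0.19, adjusted p = 0.019) and G-NHX9-8FA (-0.57 ± 0.19, adjusted p = 0.042). In G-NHX9-midi-21FGAA against G-NHX9-midi it rose by 1.17 ± 0.19, adjusted p = 8.8e-06. When each library in turn was left out, the calls that some fits lost were those of Eif5a2 in G-NHX9-DDNA (4 of 10, adjusted p up to 0.13 without G-NHX9-DDNA replicate 3), Eif5a2 in G-NHX9-midi (3 of 10, adjusted p up to 0.071 without G-NHX9 replicate 2) and Eif5a2 in G-NHX9-8FA (6 of 10, adjusted p up to 0.12 without G-NHX9 replicate 2). The erythroid markers summed to 430.4 to 1187 CPM in G-NHX9-21FGAA and 432 to 1122 in G-NHX9-DDNA, beside 204 to 522 in Empty, and their part in the level of Eif5a2 was not tested.

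**Figure D3:**
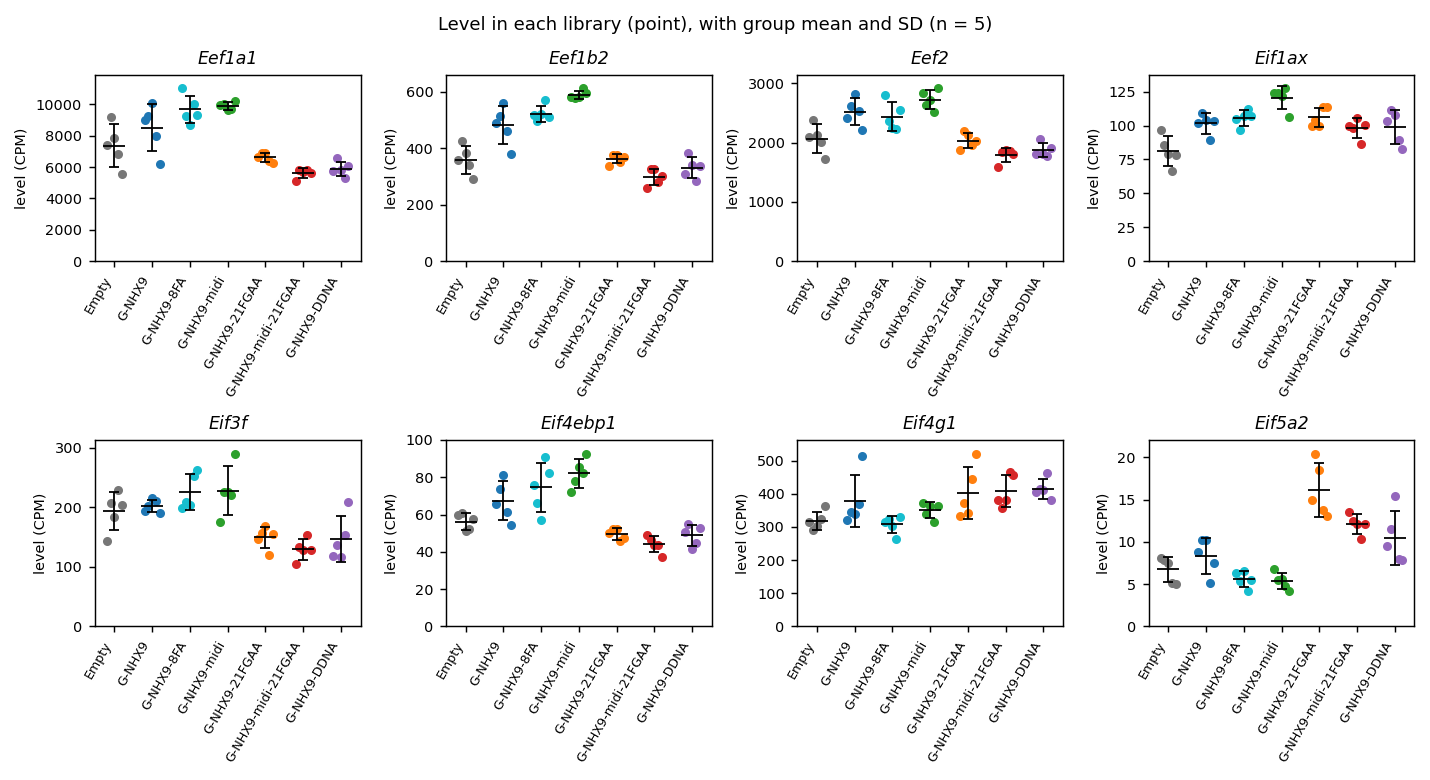
Level in CPM (y axis, from 0) of 8 members in each library (points), by group (x axis), with the group mean as a line and the SD as error bars (n = 5). Eef1a1, Eef1b2, Eef2 and Eif4ebp1 are highest in G-NHX9-midi and lowest in G-NHX9-midi-21FGAA, Eif1ax lies above Empty in all constructs on average, and Eif5a2 is highest in G-NHX9-21FGAA.

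eIF3, the large scaffold that joins the small ribosomal subunit to the mRNA, had 14 tested genes. In G-NHX9-midi 10 of them rose and 0 fell (median 0.41), and 4 rose in each of G-NHX9 and G-NHX9-8FA. Eif3g, an RNA-binding subunit, was at 66.3, 77.2, 64.3, 50.8 and 47.2 CPM in Empty and 96.5, 95.7, 103, 99.6 and 99.2 CPM in G-NHX9-midi, without overlap (0.69 ± 0.12, adjusted p = 1.3e-05). Eif3i, its partner in the same module, rose by 0.58 ± 0.11, adjusted p = 4.6e-05 in G-NHX9-midi, 0.46 ± 0.11, adjusted p = 0.0014 in G-NHX9-8FA and 0.35 ± 0.11, adjusted p = 0.01 in G-NHX9. Eif3m rose in the same 3 groups, by 0.52, 0.43 and 0.36. Eif3a, the largest subunit, did not pass in any comparison and had a log2 fold change of 0.35 ± 0.20, adjusted p = 0.16 in G-NHX9-midi. Eif3e, which was at 170.4 ± 29.6 CPM in Empty, rose in G-NHX9-midi (0.41 ± 0.12, adjusted p = 0.0059). Calls lost in some of the fits that each left out 1 library were those of Eif3g in G-NHX9 (6 of 10, adjusted p up to 0.16 without Empty replicate 5) and Eif3i in G-NHX9 (1 of 10, adjusted p up to 0.058 without Empty replicate 5). Both of these named genes were also called in G-NHX9-8FA and G-NHX9-midi, where no such fit lost the call.

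Eif3f and Eif3h, the 2 subunits with an MPN domain, fell in G-NHX9-midi-21FGAA and G-NHX9-DDNA, and Eif3f also in G-NHX9-21FGAA. Eif3f (chr7:108934417-108942951), whose CACGTG and start-site tract are printed above, was at 144, 207, 183, 229 and 204 CPM in Empty. In G-NHX9-midi-21FGAA it was at 105, 134, 128, 154 and 128 CPM, with 4 of 5 libraries below every Empty library (-0.58 ± 0.14, adjusted p = 0.0054), a call kept without each single library. It fell in G-NHX9-DDNA (-0.40 ± 0.14, adjusted p = 0.047) and G-NHX9-21FGAA (-0.37 ± 0.14, adjusted p = 0.048) by calls near the threshold. Eif3h was at 176, 222, 191, 174 and 159 CPM in Empty and 133, 158, 155, 123 and 136 CPM in G-NHX9-midi-21FGAA, all below Empty (-0.39 ± 0.10, adjusted p = 0.0083). It also fell in G-NHX9-DDNA (-0.28 ± 0.10, adjusted p = 0.048). Eif3k fell in G-NHX9-midi-21FGAA (-0.26 ± 0.09, adjusted p = 0.046) and rose in G-NHX9-8FA (0.30 ± 0.09, adjusted p = 0.012) and G-NHX9-midi (0.27 ± 0.09, adjusted p = 0.017), while Eif3l rose in G-NHX9, G-NHX9-midi, G-NHX9-21FGAA and G-NHX9-midi-21FGAA by 0.32, 0.32, 0.23 and 0.27. Leaving out 1 library at a time cost the calls of Eif3f in G-NHX9-21FGAA (8 of 10, adjusted p up to 0.17 without Empty replicate 4), Eif3f in G-NHX9-DDNA (8 of 10, adjusted p up to 0.15 without Empty replicate 4), Eif3h in G-NHX9-DDNA (8 of 10, adjusted p up to 0.2 without Empty replicate 2), Eif3k in G-NHX9-8FA (2 of 10, adjusted p up to 0.085 without G-NHX9-8FA replicate 4), Eif3k in G-NHX9-midi (2 of 10, adjusted p up to 0.075 without Empty replicate 5), Eif3k in G-NHX9-midi-21FGAA (9 of 10, adjusted p up to 0.17 without G-NHX9-midi-21FGAA replicate 5), Eif3l in G-NHX9-21FGAA (5 of 10, adjusted p up to 0.15 without G-NHX9-21FGAA replicate 4) and Eif3l in G-NHX9-midi-21FGAA (5 of 10, adjusted p up to 0.12 without G-NHX9-midi-21FGAA replicate 4).

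Of the 13 genes of start-site selection and of eIF2 itself, 5 rose in G-NHX9-midi and 1 or 2 in each other construct, and 0 fell against Empty. Eif1ax (chrX:159372178-159389928), the X-linked gene of eIF1A that keeps the scanning ribosome open, rose in all 6. It was at 96.9, 85.6, 78.8, 66.4 and 78.1 CPM in Empty and 124, 124, 122, 127 and 106 CPM in G-NHX9-midi. Its log2 fold changes were 0.32 in G-NHX9, 0.38 in G-NHX9-8FA, 0.57 in G-NHX9-midi, 0.39 in G-NHX9-21FGAA, 0.27 in G-NHX9-midi-21FGAA and 0.29 in G-NHX9-DDNA (adjusted p from 2.9e-06 to 0.029). Its autosomal relative Eif1a rose in G-NHX9-midi (0.53 ± 0.17, adjusted p = 0.01). Eif2s1, the eIF2 subunit that the stress kinases phosphorylate, rose in G-NHX9-midi (0.33 ± 0.11, adjusted p = 0.02) and G-NHX9-21FGAA (0.31 ± 0.11, adjusted p = 0.044), and Eif2s3x in G-NHX9-midi (0.25 ± 0.10, adjusted p = 0.037). Eif5, the GTPase activator of eIF2, had its largest estimate in G-NHX9-midi-21FGAA (0.46 ± 0.16, adjusted p = 0.051), and with the replicate block it was 0.46 ± 0.15, adjusted p = 0.022. Eif6, which keeps the ribosomal subunits apart, rose in G-NHX9-midi (0.30 ± 0.12, adjusted p = 0.05), just past the threshold. Eif2s3y, on the Y chromosome, was not called, with libraries at 9.42 to 22.4 CPM in Empty and 3.69 to 19.7 CPM in G-NHX9-midi-21FGAA. When each library in turn was left out, the calls that some fits lost were those of Eif1ax in G-NHX9-midi-21FGAA (5 of 10, adjusted p up to 0.097 without Empty replicate 4), Eif1ax in G-NHX9-DDNA (4 of 10, adjusted p up to 0.089 without G-NHX9-DDNA replicate 2), Eif2s1 in G-NHX9-midi (3 of 10, adjusted p up to 0.088 without Empty replicate 4), Eif2s1 in G-NHX9-21FGAA (5 of 10, adjusted p up to 0.12 without Empty replicate 4), Eif2s3x in G-NHX9-midi (6 of 10, adjusted p up to 0.14 without Empty replicate 4) and Eif6 in G-NHX9-midi (7 of 10, adjusted p up to 0.16 without Empty replicate 5).

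All 5 subunit genes of eIF2B rose in G-NHX9-midi (median 0.39), and 3 rose in each of G-NHX9 and G-NHX9-8FA. Eif2b3 was at 14.6, 14.5, 12.1, 11.6 and 11.7 CPM in Empty and 20.3, 19.1, 21.7, 20.7 and 21.2 CPM in G-NHX9-midi, without overlap (0.67 ± 0.09, adjusted p = 3.7e-07). Eif2b5, the catalytic subunit, rose in G-NHX9-midi (0.29 ± 0.08, adjusted p = 0.0047) and G-NHX9-midi-21FGAA (0.25 ± 0.08, adjusted p = 0.036). Eif2b1, a regulatory subunit, was called in G-NHX9, G-NHX9-midi, G-NHX9-21FGAA, G-NHX9-midi-21FGAA and G-NHX9-DDNA, at 0.29, 0.39, 0.40, 0.44 and 0.40. Eif2b2 rose in G-NHX9-8FA and G-NHX9-midi by 0.24 in both and fell in G-NHX9-DDNA (-0.26 ± 0.09, adjusted p = 0.048). None of the 4 eIF2 kinases passed as higher against Empty without the replicate block. Eif2ak4 (GCN2, the sensor of uncharged tRNA) was the 1 member that fell in G-NHX9-midi, from 55.4 ± 3.81 CPM to 48.9 ± 2.54 CPM (-0.18 ± 0.07, adjusted p = 0.029). Eif2ak1 (HRI, the heme-regulated kinase), Eif2ak2 (PKR) and Eif2ak3 (PERK) had log2 fold changes between -0.26 and 0.27 against Empty, and none passed. With the block Eif2ak1 passed as higher in G-NHX9-midi-21FGAA (0.20, adjusted p = 0.032). Calls lost in some of the fits that each left out 1 library were those of Eif2b1 in G-NHX9 (8 of 10, adjusted p up to 0.12 without Empty replicate 4), Eif2b1 in G-NHX9-DDNA (2 of 10, adjusted p up to 0.055 without G-NHX9-DDNA replicate 2), Eif2b2 in G-NHX9-8FA (7 of 10, adjusted p up to 0.2 without Empty replicate 5), Eif2b2 in G-NHX9-midi (5 of 10, adjusted p up to 0.15 without Empty replicate 5), Eif2b2 in G-NHX9-DDNA (7 of 10, adjusted p up to 0.15 without Empty replicate 2), Eif2b5 in G-NHX9-midi-21FGAA (5 of 10, adjusted p up to 0.097 without Empty replicate 4) and Eif2ak4 in G-NHX9-midi (4 of 10, adjusted p up to 0.12 without Empty replicate 1).

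Of the 11 tested genes of eIF4F and its helper proteins, 5 rose in G-NHX9-midi, 2 in G-NHX9-21FGAA and 1 in each other construct, and Eif4b was the 1 that fell. Eif4e, Eif4a1 and Eif4g1, the core of eIF4F, each had CACGTG in their promoters. Eif4e rose in G-NHX9-midi (0.25 ± 0.08, adjusted p = 0.01) and G-NHX9-21FGAA (0.22 ± 0.08, adjusted p = 0.035) from 85.5 ± 8.54 CPM in Empty. Eif4a1, the helicase, was not called in any comparison, and its 95% intervals were -0.04 to 0.42 in G-NHX9-midi and -0.05 to 0.42 in G-NHX9-midi-21FGAA. Eif4g1 (chr16:20668313-20692884), the scaffold, rose in 3 constructs. It was at 316, 290.1, 304, 325 and 362 CPM in Empty and 404, 415, 411, 462 and 382 CPM in G-NHX9-DDNA, without overlap (0.38 ± 0.12, adjusted p = 0.024), and rose in G-NHX9-midi-21FGAA (0.36 ± 0.12, adjusted p = 0.033) and G-NHX9-21FGAA (0.33 ± 0.12, adjusted p = 0.031). Eif4g2 and Eif4g3, relatives of the scaffold, and Eif4e2, a cap-binding relative, were not called against Empty, nor was Eif4a2, the second helicase (-0.31 ± 0.20, adjusted p = 0.3 in G-NHX9-midi-21FGAA, and -0.29 ± 0.09, adjusted p = 0.02 with the replicate block). Without TMM scaling Eif4e2 was called higher in G-NHX9 and G-NHX9-21FGAA. Eif4b, which helps the helicase, was at 475, 539.9, 517, 475 and 449 CPM in Empty and 366, 434, 412, 358 and 384 CPM in G-NHX9-midi-21FGAA, all below Empty (-0.33 ± 0.08, adjusted p = 0.0046). It also fell in G-NHX9-DDNA (-0.23 ± 0.08, adjusted p = 0.038) and rose in G-NHX9-midi (0.25 ± 0.08, adjusted p = 0.0097). Eif4e3, another cap-binding relative, rose in G-NHX9-midi (0.57 ± 0.09, adjusted p = 7e-06) and G-NHX9 (0.39 ± 0.09, adjusted p = 0.0015) without overlap with Empty. Leaving out 1 library at a time cost the calls of Eif4e in G-NHX9-midi (1 of 10, adjusted p up to 0.065 without Empty replicate 4), Eif4e in G-NHX9-21FGAA (4 of 10, adjusted p up to 0.099 without Empty replicate 4), Eif4g1 in G-NHX9-21FGAA (4 of 10, adjusted p up to 0.13 without G-NHX9-21FGAA replicate 5), Eif4g1 in G-NHX9-midi-21FGAA (5 of 10, adjusted p up to 0.082 without G-NHX9-midi-21FGAA replicate 4), Eif4g1 in G-NHX9-DDNA (3 of 10, adjusted p up to 0.067 without Empty replicate 2) and Eif4b in G-NHX9-DDNA (8 of 10, adjusted p up to 0.13 without Empty replicate 2).

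Eif4ebp1 (chr8:27260329-27276674), the mTOR-controlled repressor of eIF4E, was at 59.6, 60.8, 51.2, 52.1 and 57.5 CPM in Empty, 72.2, 78.2, 85.6, 82.2 and 92.6 CPM in G-NHX9-midi and 48.8, 46.3, 43.9, 43.8 and 37.2 CPM in G-NHX9-midi-21FGAA. The 3 ranges did not overlap. It rose in G-NHX9-midi (0.55 ± 0.11, adjusted p = 0.00012) and G-NHX9-8FA (0.41 ± 0.11, adjusted p = 0.005) and fell in G-NHX9-midi-21FGAA (-0.35 ± 0.11, adjusted p = 0.023). Its ratio to Eif4e (log2 of CPM plus 0.5) was -0.60 ± 0.13 in Empty (SD, n = 5), -1.0 ± 0.15 in G-NHX9-21FGAA and -1.06 ± 0.18 in G-NHX9-midi-21FGAA, below every Empty library in 5 of 5 libraries of both. The exact permutation p, two-sided, was 0.0079 for each, the smallest that 5 against 5 can give, and 0.079 after adjustment over the 30 tests of 5 ratios in 6 comparisons. The ratio of Eif4a2 to Eif4a1 was lower in G-NHX9-midi-21FGAA by the same test (-0.49 against Empty, 5 of 5 libraries below, exact p = 0.0079, adjusted 0.079). No ratio of the 30 passed the adjusted threshold, and 0.079 was the smallest adjusted value. A ratio alone at the smallest possible p could not pass after adjustment over 30 tests. The lack of a call therefore does not show that ratios were equal. Unadjusted, 8 of the 30 had an exact p under 0.05. Eif4ebp2, a second 4E-BP, was spread widely within groups (13.2, 19.0, 14.8, 41.9 and 49.3 CPM in Empty) and was not called. The call of Eif4ebp1 in G-NHX9-midi-21FGAA (5 of 10, adjusted p up to 0.1 without G-NHX9-midi-21FGAA replicate 5) was lost in some fits that each left out 1 library.

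Among the modifiers, Eef1e1 (the scaffold protein of the multi-tRNA synthetase complex, named for elongation but not an exchange factor) rose in G-NHX9, G-NHX9-8FA, G-NHX9-midi, G-NHX9-21FGAA and G-NHX9-DDNA. It was at 16.5, 18.1, 14.7, 12.5 and 11.1 CPM in Empty and 25.1, 27.7, 27.1, 25.9 and 23.9 CPM in G-NHX9-midi, without overlap (0.83 ± 0.15, adjusted p = 2.4e-05). The other 4 log2 fold changes were 0.53, 0.51, 0.45 and 0.43, with adjusted p of 0.0049, 0.0089, 0.019 and 0.039. Eef2kmt, a methyltransferase of eEF2, fell in G-NHX9-21FGAA (-0.39 ± 0.11, adjusted p = 0.0075) and G-NHX9-DDNA (-0.34 ± 0.11, adjusted p = 0.032). Eef1akmt1, a methyltransferase of eEF1A, rose in G-NHX9-midi-21FGAA (0.55 ± 0.14, adjusted p = 0.0055). Eef2k, the kinase that stops eEF2, was not called against Empty. Over all 6 constructs, 22 tested members were called in none against Empty, among them Eif1, Eif5, Eif3a, Eif3b, Eif4a1, Eif4g2, Eif5a and Eif5b, and 2, Eef1g and Eif1ax, were called higher in all 6. With the replicate block, Eif5 and Eif4g2 passed as higher in G-NHX9-midi-21FGAA (0.46 and 0.37, adjusted p = 0.022 and 0.031) and G-NHX9-DDNA (0.40 and 0.34, adjusted p = 0.043 and 0.049), and Eif1 as lower in G-NHX9-midi-21FGAA (-0.35, adjusted p = 0.029). Calls lost in some of the fits that each left out 1 library were those of Eef1e1 in G-NHX9-8FA (1 of 10, adjusted p up to 0.055 without G-NHX9-8FA replicate 4), Eef1e1 in G-NHX9-21FGAA (2 of 10, adjusted p up to 0.07 without G-NHX9-21FGAA replicate 5), Eef1e1 in G-NHX9-DDNA (6 of 10, adjusted p up to 0.18 without G-NHX9-DDNA replicate 2) and Eef2kmt in G-NHX9-DDNA (6 of 10, adjusted p up to 0.12 without Empty replicate 2).

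To ask what the FG changes did within the short form, G-NHX9-midi-21FGAA was compared with G-NHX9-midi. Here most calls were lower: 27 of 62 were lower and 5 higher, where 43.2% of all genes were called (22.2% lower and 21.0% higher). In 24 members all 5 libraries of G-NHX9-midi-21FGAA lay below all 5 of G-NHX9-midi, and in 3 they lay above. How many of all genes were separated in this way was not counted, so these numbers have no background. The median of the 62 log2 fold changes was -0.23, beside -0.02 over all genes. Eef1b2 (-0.98 ± 0.10, adjusted p = 5.1e-10), Eif4ebp1 (-0.90 ± 0.11, adjusted p = 3.7e-08), Eef1a1 (-0.82 ± 0.11, adjusted p = 5.4e-07), Eif3f (-0.81 ± 0.14, adjusted p = 1.8e-05) and Eef2 (-0.60 ± 0.09, adjusted p = 1.1e-06) were lower, each without overlap. So were 9 of the 14 eIF3 genes, 3 of 5 of eIF2B, 4 of 7 elongation genes and 5 of 11 of eIF4F and its helpers. Higher were Eif5a2, Eif4g2 (0.45 ± 0.17, adjusted p = 0.038), Eif2ak1 (0.45 ± 0.12, adjusted p = 0.0026), Eif2ak2 (0.44 ± 0.13, adjusted p = 0.0074) and Eef1akmt1 (0.41 ± 0.14, adjusted p = 0.014). Of these 32 calls, 28 were kept in all 10 fits without 1 library, the others being Eif4g2, Eef1akmt1, Eif1 and Eif4a3 (adjusted p up to 0.14 for Eif4g2, without G-NHX9-midi-21FGAA replicate 4), and without TMM the counts were again 27 lower and 5 higher. All 10 erythroid, all 8 mast cell and all 6 eosinophil markers were higher in G-NHX9-midi-21FGAA in this comparison and all 5 early granule markers lower. Their part in it was not tested.

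**Figure D4:**
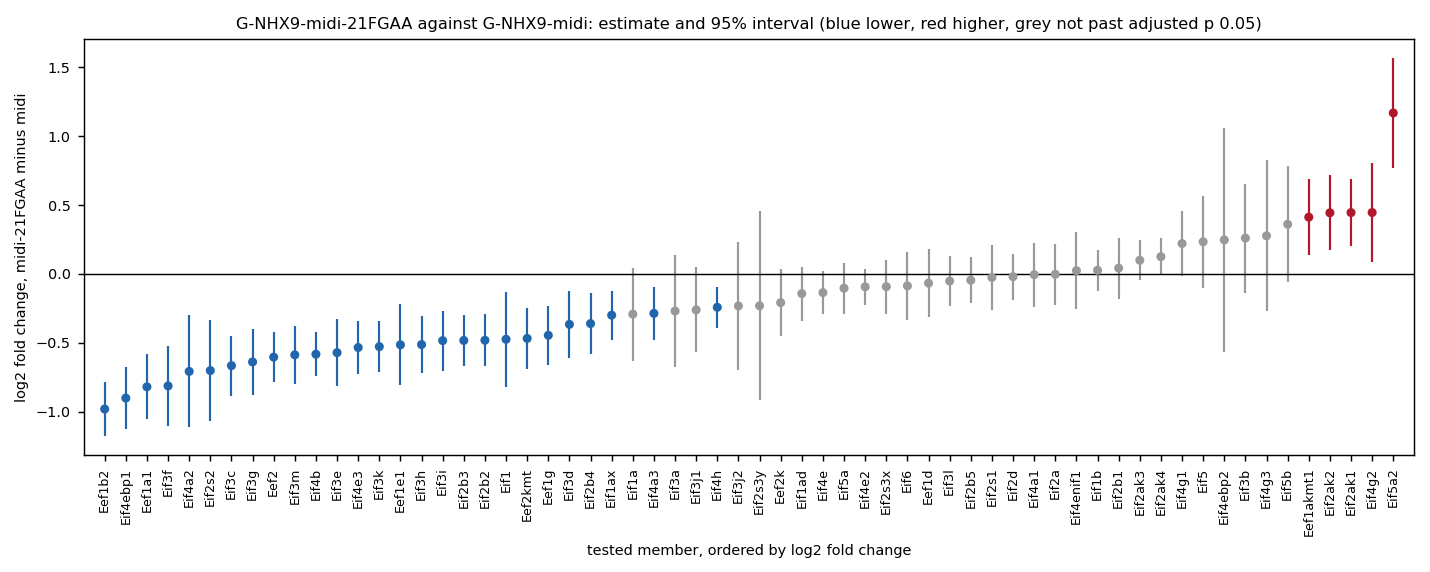
Log2 fold change of each of the 62 tested members in G-NHX9-midi-21FGAA against G-NHX9-midi (points) with its 95% interval (lines), ordered by size, in blue for the 27 lower, red for the 5 higher and grey for those not past the adjusted p of 0.05. Eef1b2 is lowest at -0.98 and Eif5a2 highest at 1.17.

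Among the comparisons with the unmutated G-NHX9, that of G-NHX9-DDNA, which asks about the homeodomain, had the largest number of members called. They were 14 of 62 (22.6%), near the 22.1% of all genes called. All these comparisons share the G-NHX9 libraries, as those above share the Empty libraries. In G-NHX9-DDNA 13 were lower and 1 higher (background 22.1%, 11.4% lower and 10.7% higher). The replicate number paired these libraries, and with it as a block 15 were lower and 2 higher. Eef1b2 (-0.54 ± 0.10, adjusted p = 6.5e-05), Eef1a1 (-0.53 ± 0.11, adjusted p = 0.00077), Eif4e3 (-0.53 ± 0.09, adjusted p = 6.2e-05) and Eef2 (-0.43 ± 0.09, adjusted p = 0.00049) were lower, as were 6 of 14 eIF3 genes, Eif4b and Eif4ebp1. Eif1b, a close relative of the start-codon factor eIF1, was the 1 higher without the block (0.23 ± 0.07, adjusted p = 0.022). Its call depended on the scaling: without TMM 0 members were higher and 16 lower in G-NHX9-DDNA against G-NHX9. In G-NHX9-21FGAA, 10 were lower and 2 higher (background 17.2%, 8.34% lower and 8.91% higher). This comparison was also paired, and the replicate block gave 10 lower and 3 higher. Without the block, the following were called. Eif4ebp1 (-0.44 ± 0.11, adjusted p = 0.0035), Eif3f (-0.44 ± 0.14, adjusted p = 0.028) and Eef1b2 (-0.41 ± 0.10, adjusted p = 0.0021) were lower without overlap, and Eef2k (0.45 ± 0.12, adjusted p = 0.0075) and Eif5a2 were higher. In G-NHX9-midi, 6 were higher and 2 lower (background 19.7%, 8.50% higher and 11.2% lower). Eef2k (0.44 ± 0.12, adjusted p = 0.0077), Eif2b3 (0.40 ± 0.09, adjusted p = 0.0017) and Eif3g (0.38 ± 0.12, adjusted p = 0.017) led those higher, and Eif2ak2, the double-stranded RNA sensor PKR, was lower without overlap (-0.53 ± 0.13, adjusted p = 0.0044). In G-NHX9-8FA, Eif5a2 was the 1 member called (background 14.5%, 6.43% higher and 8.04% lower, and 1 lower and 0 higher with DESeq2), which does not show that the other 61 were equal. For Eef1b2 the 95% interval of this difference was -0.08 to 0.31, for Eef1a1 -0.05 to 0.42 and for Eif4ebp1 -0.07 to 0.37. In this comparison all genes lay 0.13 lower without TMM, the share of calls that was higher moved from 44.4% to 20%, and 9 members were lower. In fits that each left out 1 library, 8 of the 14 calls in G-NHX9-DDNA were kept throughout. So were 6 of 12 in G-NHX9-21FGAA, 3 of 8 in G-NHX9-midi and 0 of 1 in G-NHX9-8FA. Of the eIF3 genes lower in G-NHX9-DDNA, only Eif3m kept its call in all such fits. Eif3c and Eif3e each lost it in 6 of 10. Of the genes given with values here, calls were lost for Eif3g in G-NHX9-midi (2 of 10, adjusted p up to 0.072 without G-NHX9 replicate 5), Eif3f in G-NHX9-21FGAA (7 of 10, adjusted p up to 0.098 without G-NHX9-21FGAA replicate 4) and Eif1b in G-NHX9-DDNA (1 of 10, adjusted p up to 0.056 without G-NHX9-DDNA replicate 2).

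**Figure D5:**
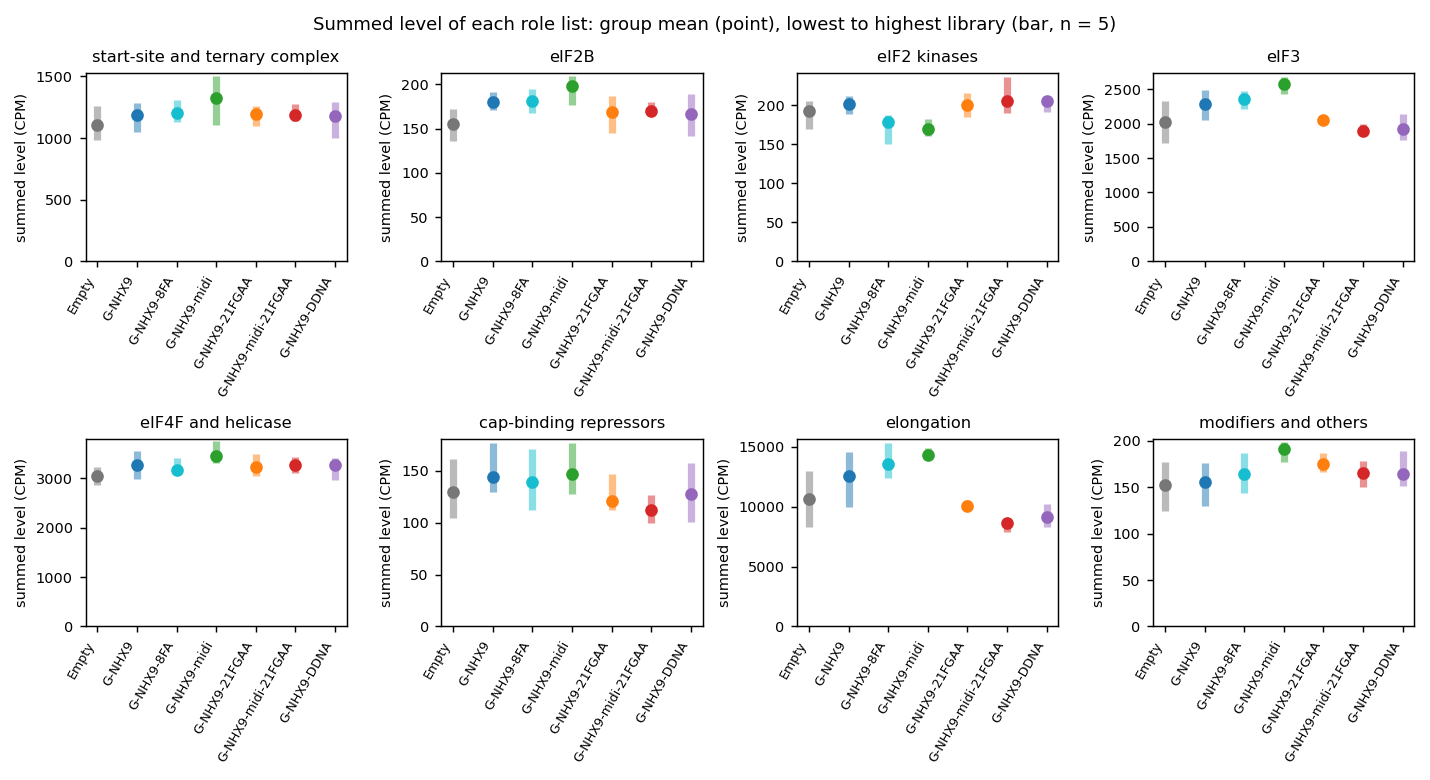
Summed level in CPM (y axis, from 0) of the genes of each role list by group (x axis), with the mean of 5 libraries as a point and the lowest to the highest library as a bar. The eIF3 and elongation sums are highest in G-NHX9-midi and lowest in G-NHX9-midi-21FGAA, and the eIF2 kinase sum is lowest in G-NHX9-midi.

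Added over all members, the level was 17438 ± 2110.3 CPM in Empty (SD, n = 5), 19957 ± 1883 in G-NHX9, 21021 ± 1355 in G-NHX9-8FA, 22415 ± 501 in G-NHX9-midi, 17203 ± 288 in G-NHX9-21FGAA, 15678 ± 408 in G-NHX9-midi-21FGAA and 16161 ± 974 in G-NHX9-DDNA. The range was 21779.9 to 23124 CPM in G-NHX9-midi and 14976 to 15966 in G-NHX9-midi-21FGAA, so these did not overlap. Elongation factors, mainly Eef1a1, made up most of it (14359.6 ± 398 CPM in G-NHX9-midi and 8675 ± 464 in G-NHX9-midi-21FGAA). The 4 eIF2 kinases together ran the other way, at 161 to 182 CPM in G-NHX9-midi and 189 to 237 in G-NHX9-midi-21FGAA.

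The genes that work beside these factors were counted from fixed lists. Each count is to be read beside the share of all genes called against Empty. This share was 32.1% in G-NHX9, 26.6% in G-NHX9-8FA, 40.5% in G-NHX9-midi and 27.1% in G-NHX9-21FGAA. It was 16.9% in G-NHX9-midi-21FGAA and 17.2% in G-NHX9-DDNA, and 43.2% within the short form. In G-NHX9-midi, 20.5% of all genes were higher and 20% lower. Of 15 genes of the integrated stress response, the ATF4 programme downstream of the eIF2 kinases, 7 rose and 1 fell in G-NHX9-midi, whereas 10 fell in G-NHX9-midi-21FGAA, 9 in G-NHX9-DDNA, and 0 rose in either. Trib3, a pseudokinase induced by ATF4, was at 49.6 ± 23.6 CPM in Empty, 92.4 ± 22.7 CPM in G-NHX9-midi (0.90 ± 0.28, adjusted p = 0.0091) and 18.3 ± 2.63 CPM in G-NHX9-midi-21FGAA (-1.44 ± 0.28, adjusted p = 0.001). Chac1, an ATF4 target that degrades glutathione, fell in G-NHX9-midi-21FGAA (-1.82 ± 0.36, adjusted p = 0.0011), and Atf3, a stress-induced factor, in G-NHX9-midi (-1.01 ± 0.33, adjusted p = 0.014). In G-NHX9, Atf5 (-1.14 ± 0.26, adjusted p = 0.00098) and Ddit3 (-0.91 ± 0.31, adjusted p = 0.021) were the largest of 4 that fell, with 2 that rose. In G-NHX9-8FA 2 rose and 0 fell, the cystine transporter Slc7a11 (0.97 ± 0.25, adjusted p = 0.0033) and the mTOR inhibitor Ddit4 (0.67 ± 0.21, adjusted p = 0.019). In G-NHX9-21FGAA 5 fell and 1 rose, with Atf5 (-1.39 ± 0.26, adjusted p = 0.00025) and Trib3 (-1.29 ± 0.28, adjusted p = 0.00087) the largest. In G-NHX9-DDNA these were Trib3 (-1.54 ± 0.28, adjusted p = 0.00069) and Atf5 (-1.49 ± 0.26, adjusted p = 0.00054). Within the short form 12 of the 15 were lower in G-NHX9-midi-21FGAA and 0 higher.

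Of 19 cytosolic tRNA synthetases, which charge the tRNAs that eEF1A carries, 15 rose and 0 fell in G-NHX9-midi, led by Dars (0.72 ± 0.17, adjusted p = 0.0007) and Tars (0.66 ± 0.12, adjusted p = 5.1e-05). In G-NHX9-midi-21FGAA 8 fell and 2 rose, led by Cars (-0.77 ± 0.15, adjusted p = 0.0012) and Aars (-0.60 ± 0.15, adjusted p = 0.0055), and 15 were lower than in G-NHX9-midi. In G-NHX9 8 rose, with Vars (0.76 ± 0.18, adjusted p = 0.0011) and Farsa (0.56 ± 0.11, adjusted p = 0.00013) first, and in G-NHX9-8FA Dars (0.50) and Kars (0.35) rose. In G-NHX9-21FGAA 4 rose and 3 fell, with Hars (0.50) and Vars (0.49) the largest, and in G-NHX9-DDNA 2 rose and 4 fell, with Aars (-0.65) and Cars (-0.65) the largest. Among 10 partners of initiation, Pdcd4, which holds back eIF4A, was called in 4 constructs. It was at 33.8, 26.9, 28.6, 22.1 and 20.3 CPM in Empty and 107, 133, 105, 81.1 and 74.1 CPM in G-NHX9-midi (1.92 ± 0.18, adjusted p = 2.8e-10), and it rose by 1.29 ± 0.18, adjusted p = 7.6e-07 in G-NHX9, 1.21 ± 0.18, adjusted p = 3e-06 in G-NHX9-8FA and 0.90 ± 0.17, adjusted p = 0.00031 in G-NHX9-21FGAA. Mcts2 (0.82) was the next largest of 4 that rose in G-NHX9-midi, and Paip2 (0.24) also rose in G-NHX9-8FA. Of 11 genes of mTOR and MNK signalling, 4 fell and 1 rose in G-NHX9-midi. Mknk1, a kinase of eIF4E, fell in all 6 constructs, by 0.45 in G-NHX9 and 0.40 in G-NHX9-midi on the log2 scale. Its relative Mknk2 fell by 0.50 in G-NHX9-midi, 0.30 in G-NHX9-21FGAA and 0.28 in G-NHX9-midi-21FGAA, and Rps6ka1, a kinase that phosphorylates eIF4B, rose by 0.49 in G-NHX9, 0.38 in G-NHX9-8FA and 0.37 in G-NHX9-DDNA. Of 9 genes of hypusine and diphthamide synthesis, the modifications of eIF5A and eEF2, 5 rose in G-NHX9-midi, with Dph5 (0.53 ± 0.13, adjusted p = 0.0011) and Dph2 (0.50) first, and 0 or 1 in each other construct. Of 4 release and recycling factors, 1 fell in G-NHX9 (Gspt2, -0.50 ± 0.18, adjusted p = 0.029), 1 rose in each of G-NHX9-midi (Abce1, 0.48), G-NHX9-21FGAA (Gspt1, 0.29) and G-NHX9-DDNA (Gspt1, 0.30), and 0 were called in the other 2. Of 10 mitochondrial translation factors, 5 rose in G-NHX9-midi, with Guf1 (0.53) first, 3 in G-NHX9-21FGAA, with Tsfm (0.37) first, 2 in G-NHX9-DDNA, 1 in each of G-NHX9 and G-NHX9-midi-21FGAA and 0 in G-NHX9-8FA, and none fell.

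The calls were also counted by the promoter letters printed above, in 11 comparisons of which not all are given here. Among the 12 with CACGTG, 4 rose in G-NHX9-midi and 0 fell, with a median log2 fold change of 0.22. Among the 37 tested members with a promoter that lacks it, 19 rose and 1 fell, with a median of 0.25. Of all genes tested, 20.5% were higher and 20% lower in G-NHX9-midi. In G-NHX9-midi-21FGAA against G-NHX9-midi, 4 of the 12 were lower and 1 higher (median -0.17), and 16 of the 37 lower and 2 higher (median -0.14). The background of this comparison was 22.2% lower and 21% higher. Eif5a2 was higher there and Eif3f was lower.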

How the data were processed

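RNA sequencing of 35 libraries in 7 groups was analysed from 1 matrix of raw read counts per gene, which the authors deposited. Per the submitters' processing notes and the study's methods, reads from a stranded total RNA kit were aligned to mm10 with STAR 2.7.0d and counted with HTSeq 0.11.2. The gene annotation and the strand setting were not given in the sources used here. Columns were matched to samples by their titles, and groups came from the labels.

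Counts were filtered with filterByExpr, scaled with TMM and tested with edgeR 4.0.16 in R 4.3.3 (quasi-likelihood F-test, 1 mean per group, all libraries sharing 1 dispersion per gene, Benjamini-Hochberg adjustment over 17166 genes, threshold 0.05). SE was taken from the fold change and its F value. CPM used TMM-scaled totals, and RPKM the exon length in GENCODE M21 (GRCm38), where 99.3% of gene IDs matched without their version. Ratios within a library were compared by exact permutation tests over libraries. Counts were simulated for G-NHX9 against Empty over 16799 genes, with 67, 67 and 66 genes changed 1.5-fold, 2-fold and 4-fold. The changed genes had a mean of at least 1 CPM, and the fit called 61.2%, 79.1% and 100% of them in turn. A far larger share of genes was called in the data (32.1%), so these rates do not give the sensitivity of the reported tests. Intervals of counts and the limit of 3 reads for a count of 0 cover counting error only.

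Alternatives were no TMM, RLE factors, no filter, a minimum mean of 1 CPM, the 2 groups alone, a replicate block, a sex-linked expression score, DESeq2 1.42.0 and leaving out each library. Deviations of same-numbered libraries correlated at 0.23 on average (-0.06 otherwise), and each pair was above 0.1 in 5 comparisons (G-NHX9, G-NHX9-midi-21FGAA and G-NHX9-DDNA against Empty, and G-NHX9-21FGAA and G-NHX9-DDNA against G-NHX9), which were taken as paired from the data alone.

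The members, the role, pathway and marker lists and the tests were chosen with earlier results of these data known. Members were named if on a fixed list of key factors, if among the 3 that rose or fell most in a comparison (mean of at least 1 CPM), or if at a median of 0 counts in every group. Of each pathway list the 2 largest changes against Empty were named. Pseudogenes with a -ps name (7 records) were left out, the highest being Eif4a-ps4 at 6.35 to 12.7 CPM.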

Additional observations from a re-analysis of the deposited data

Results flagged for a closer look

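In 12 of the 273 groups of 5 libraries examined over 39 named members (4.4%), 1 library lay apart from the other 4 by Dixon's criterion, where chance gives about 1 in 20. Eif4g1, the eIF4G scaffold, was at 515 CPM in G-NHX9 replicate 5 against 321 to 369 in the other 4, and its relative Eif4g2 was at 849 CPM in the same library against 406 to 499. In G-NHX9-midi replicate 5, Eif4g3 was at 92.6 CPM against 57.2 to 60.5, Eif2s1 at 107 against 135 to 141 and Eif4ebp2 at 32.5 against 14 to 16.9. In G-NHX9-midi replicate 2, Eif6 was at 73.2 CPM against 87.2 to 92.5 and Eif2b5 at 62.1 against 71.1 to 73.0. In G-NHX9-midi-21FGAA replicate 1, Eef1a1 was at 5086 CPM against 5645 to 5837 and Eef2 at 1583 against 1801 to 1869. The remaining ones were Eif2s3x in G-NHX9 replicate 4 at 87.6 CPM against 105 to 110.2, Eef1e1 in G-NHX9-8FA replicate 4 at 25.9 against 18.7 to 20, and Eif4ebp2 in G-NHX9-21FGAA replicate 5 at 36.5 against 16.1 to 21.2.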

How the results depend on the processing

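The number of members called per comparison kept within 1.5 times of its value under RLE factors, a minimum mean of 1 CPM and DESeq2. Without TMM it was 38 in G-NHX9 against Empty (13 as reported), 29 in G-NHX9-21FGAA (13), 24 in G-NHX9-midi-21FGAA (14), 20 in G-NHX9-DDNA (12) and 9 in G-NHX9-8FA against G-NHX9 (1). Eif4e2 then reversed, to 0.17 (adjusted p = 0.018) in G-NHX9 and 0.18 (adjusted p = 0.017) in G-NHX9-21FGAA against Empty. Without the filter it was 7 in G-NHX9-21FGAA, 8 in G-NHX9-midi-21FGAA and 3 in G-NHX9-DDNA against Empty, and 0 in G-NHX9-8FA and 5 in G-NHX9-21FGAA against G-NHX9. With the 2 groups alone it was 8 in G-NHX9-21FGAA and 1 in G-NHX9-DDNA against Empty, and 5 in G-NHX9-midi, 6 in G-NHX9-21FGAA and 9 in G-NHX9-DDNA against G-NHX9. With the replicate block it was 20 in G-NHX9 and 23 in G-NHX9-midi-21FGAA against Empty, and 5 in G-NHX9-8FA and 15 in G-NHX9-midi against G-NHX9, and every call without the block was kept with it. In the comparisons not taken as paired, 2 to 4 of the 5 same-numbered pairs still correlated above 0.1. The number was thus not shown to be a mere label there. With the sex-linked score it was 4 in G-NHX9-8FA against G-NHX9. The cause was not tested for any of these.

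Leaving out 1 library at a time gave 8 to 15 members called in G-NHX9, 10 to 18 in G-NHX9-8FA, 25 to 36 in G-NHX9-midi, 5 to 15 in G-NHX9-21FGAA, 8 to 15 in G-NHX9-midi-21FGAA and 1 to 17 in G-NHX9-DDNA against Empty. It gave 0 to 1 in G-NHX9-8FA, 4 to 11 in G-NHX9-midi, 7 to 13 in G-NHX9-21FGAA and 10 to 20 in G-NHX9-DDNA against G-NHX9, and 30 to 32 in G-NHX9-midi-21FGAA against G-NHX9-midi. The count fell by over 1.5 times without Empty replicate 5 in G-NHX9 (8), without Empty replicates 4 (7) and 5 (7) or G-NHX9-21FGAA replicates 4 (6) and 5 (5) in G-NHX9-21FGAA, and without Empty replicates 3 (9) and 4 (8) or G-NHX9-midi-21FGAA replicates 3 (9) and 4 (9) in G-NHX9-midi-21FGAA. In G-NHX9-DDNA it fell without Empty replicates 2 (7), 3 (4) and 4 (4) and without G-NHX9-DDNA replicates 1 (5), 2 (3), 3 (1) and 4 (7). Against G-NHX9 it fell without G-NHX9 replicates 4 and 5 (4 each) in G-NHX9-midi, without G-NHX9 replicate 2 (7) or G-NHX9-21FGAA replicate 1 (7) in G-NHX9-21FGAA, and to 0 without G-NHX9 replicates 2 and 3 or G-NHX9-8FA replicates 2, 4 and 5 in G-NHX9-8FA. At 31559914 reads or more per library, Eef1a2, Eif4e1b, Eif4ebp3 and Eif2c5 were too low to test.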

Other observations

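These patterns were noticed after the values were seen. In 2 of the 62 tested members, the same replicate number was highest in all 7 groups. The share of all tested genes with this pattern was not computed. Replicate 1 was highest for Eif4a2, the second eIF4A helicase, at 359.7 CPM in Empty against 199 to 282 in the others and at 483 CPM in G-NHX9-midi against 246 to 361. Replicate 5 was highest for Eif4enif1, the shuttling protein that carries eIF4E into the nucleus, from 51.6 to 67.2 CPM across the groups. For Eif4ebp2, a 4E-BP, replicate 5 was highest in 6 of 7 groups. In G-NHX9-DDNA it was at 40.6 and 42.8 CPM in replicates 4 and 5 against 16 to 20.4 in the other 3, and in Empty at 41.9 and 49.3 CPM against 13.2 to 19.0. No member was lowest in the same replicate number in all 7 groups. What a replicate number shares across groups is not given in the labels.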
